A study of Mus musculus with 6 samples.

Results

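The comparison described here set the 2 libraries of cells that overexpressed Kv1.2 against the 2 libraries of control cells, across all genes. A gene entered it when it reached at least 1 CPM, its count scaled to a common library total, in at least 2 of these 4 libraries, which 10600 of the 55573 genes of the count table did. RNA of adult-born cells, taken from the olfactory bulb of mice, was measured by sequencing of full-length cDNA after sorting by the fluorescence of the Ca2+ sensor Twitch-2B. The series holds 12 mice in 3 groups of 2 libraries (control, Kv1.2 and Kir2.1). The mice were C57BL/6 males, 3 months old, and the olfactory bulbs of 2 mice were pooled for each library, so the libraries of a group were made from different mice. All groups received a lentivirus in the rostral migratory stream, the path of newborn cells to the bulb, and were sampled after 9 days. The control virus carried Twitch-2B with a nuclear mCherry, and the other viruses carried Twitch-2B with the K+ channel Kv1.2 or Kir2.1. At least 3000 cells were sorted for each library. The viral backbone uses a ubiquitin promoter that is not restricted to neurons, the sort included adult-born granule cells next to juxtaglomerular cells, and the Kv1.2 insert came from a human cDNA.

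Kv1.2 is a voltage-gated channel that lets K+ leave the cell on depolarization and so dampens firing. Adult-born neuroblasts reach the bulb from the subventricular zone, express doublecortin while they migrate, and mature into GABAergic interneurons with synapses, ion channels and transmitter receptors. The bulb also contains microglia, the resident macrophages of the brain. MHC class I molecules present peptides to CD8+ T cells, MHC class II molecules present them to CD4+ T cells, and genes of both pathways are inducible by interferon-gamma, a product of T and NK cells.

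In both Kv1.2 libraries, most of the tested genes of antigen presentation, most interferon-stimulated genes and several genes of lymphocytes stood above both control libraries. Most of the tested synaptic, receptor, astrocytic and mitochondrially encoded genes stood below them. All 5 T and NK cell genes tested passed the minimum of 1 CPM only through Kv1.2. Only through the control did 13 of 25 synaptic, 12 of 17 receptor and 2 of 6 astrocytic genes pass it. The direction of these genes was fixed by the minimum. No gene passed the threshold. The quasi-likelihood test of edgeR called 0 of 10600 genes (0%) at an adjusted p under 0.05, and the smallest adjusted p was 0.172. At an unadjusted p under 0.05, 418 genes (3.94%) were higher and 1043 genes (9.84%) were lower in Kv1.2. DESeq2 called 1114 genes and edgeR's likelihood ratio test 906 genes at an adjusted p under 0.05. Without control replicate 1 the quasi-likelihood test called 15 genes, and the unadjusted count was then 787 for higher genes, while without control replicate 2 it was 639 for lower genes. Without Kv1.2 replicate 1 and without Kv1.2 replicate 2 the count of higher genes was 243 and 258. With 2 libraries against 2, an exact two-sided permutation test of a single gene cannot give a p below 0.333. In simulated data of this design, 32.7% of 64-fold differences and 1.19% of 4-fold ones passed an adjusted p under 0.05 in the quasi-likelihood test.

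Because of the small groups, genes are described below by how the 4 libraries lay. A gene is called separated when both Kv1.2 libraries lay at least 4-fold above, or at least 4-fold below, both control libraries, on CPM with a prior count of 2. There were 544 genes separated upward (5.13%) and 1278 separated downward (12.1%). These counts depend on the fold chosen and grow when a library is left out, since fewer values then have to be apart. Upward, they were 1558 without control replicate 1, 1347 without control replicate 2, 875 without Kv1.2 replicate 1 and 893 without Kv1.2 replicate 2. Downward, they were 2073 without Kv1.2 replicate 1 and 2026 without Kv1.2 replicate 2. The upward genes held 0.322% and 0.143% of the counts in the control libraries and 5.4% and 3.61% in the Kv1.2 libraries. The downward genes held 15.5% and 34.2% in the control libraries against 1.64% and 1.81% in the Kv1.2 libraries. Among all genes tested, 132 had at least 10 CPM in both control libraries and no count in either Kv1.2 library, and 32 genes showed the reverse pattern. Without regard to the size of the gap, 2206 genes (20.8%) lay above the control without overlap, 2615 (24.7%) lay below it, and 5779 overlapped between the groups.

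**Figure D1:**
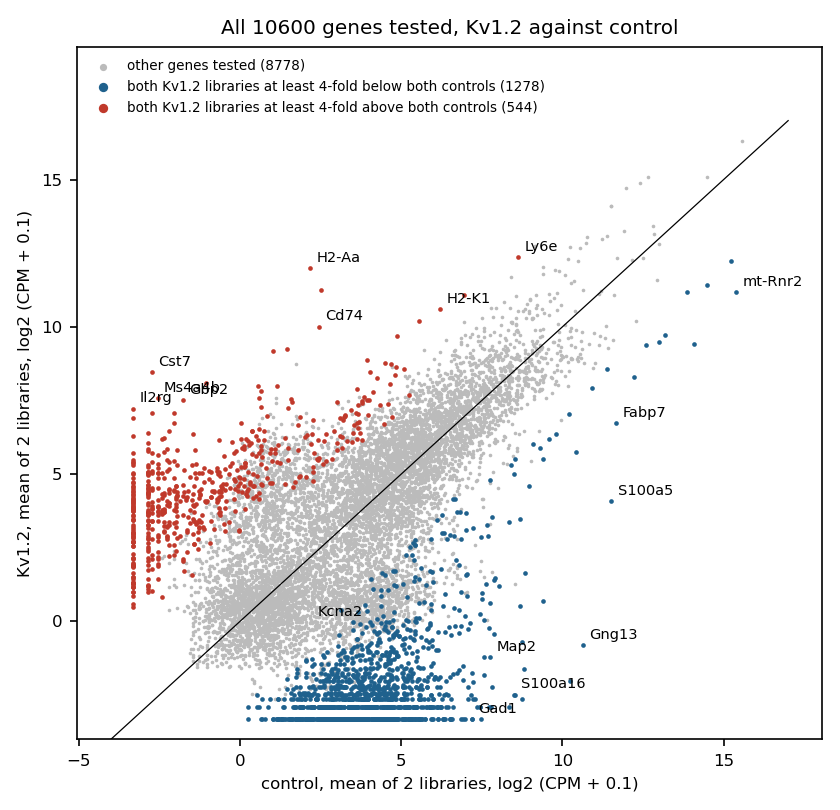
Mean level of each of the 10600 genes tested in the 2 control libraries (x axis) and the 2 Kv1.2 libraries (y axis), both as log2 of CPM plus 0.1, with the line of equal levels. Red points are the 544 genes separated upward and blue points the 1278 genes separated downward by at least 4-fold; the rows of points at the left and lower edges are genes with no or few counts in one group.

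Replicates of a group differed widely. Among genes with at least 10 CPM in either control library, 1342 of 7789 were under 1 CPM in the other one, and 1589 of 7182 were so between the Kv1.2 libraries. The median absolute difference on the log2 CPM scale was 1.62 between the control libraries, 1.04 between the Kv1.2 libraries and 1.44 between the group means. Control replicate 2 stood apart, with mt-Rnr2 as its most abundant gene where Cst3 led the other 5 libraries. The 15 microglial marker genes held 2.87% of the counts of control replicate 1 and 0.290% of those of control replicate 2, against 3.84% and 4.07% with Kv1.2, and 3.30% and 5.23% with Kir2.1. Total counts were between 8871595 and 13632970 per library.

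The samples are labelled as neurons, and the Kv1.2 libraries held little RNA of neuronal markers. Map2, which encodes a dendritic microtubule protein, was measured at 92.0 and 502 CPM in the control libraries and at 0.612 and 0.157 CPM in the Kv1.2 libraries. Rbfox3, which encodes the neuronal nuclear antigen NeuN, was at 0.378 and 20.6 CPM in the control and at 3.21 and 0 CPM in the Kv1.2 libraries, and these groups overlapped. Its log2 fold change of −2.70 became 2.1 without control replicate 2. Summed over the 9 mature neuron markers tested, the level was 651 and 1423 CPM in the control, 14.2 and 12.0 CPM in Kv1.2, and 14.4 and 71.8 CPM with Kir2.1. The microglial marker P2ry12, an ADP receptor gene, was instead abundant in Kv1.2, at 6242 and 8553 CPM, and was at 5505 and 513 CPM in the control. In bulk samples like these, fewer cells of a type and less RNA per cell cannot be told apart.

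In these counts, the channel gene itself did not mark the Kv1.2 libraries. Kcna2, which encodes Kv1.2 (chromosome 3, 107101146 to 107115005, plus strand, GRCm38), was at 0.283 and 55.3 CPM in the control, 1.83 and 0.393 CPM in Kv1.2, and 0.283 and 0.0916 CPM with Kir2.1. Both Kv1.2 values lay between the control values, with a log2 fold change of −4.63 (standard error 2.79, unadjusted p = 0.142 by edgeR's quasi-likelihood test). Without control replicate 2 the log2 fold change was 1.97, so its sign rests on that library. The study itself reports raised Kcna2 mRNA in sorted Kv1.2 cells by quantitative PCR, and stronger Kv1.2 immunofluorescence. Reads of the human insert may align to the mouse gene only in part, and their share was not tested.

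Genes of antigen presentation took 7 of the 10 places among the most abundant genes separated upward. Of 9 MHC class II genes tested, 7 were separated upward, 8 did not overlap with the control and 6 were higher at an unadjusted p under 0.05. The shares of all genes tested were 5.13%, 20.8% and 3.94%. The median log2 fold change was 4.30 against −0.08 for all genes tested. H2-Aa, which encodes an alpha chain of the class II dimer, was at 1.13 and 16.6 CPM in the control and at 7591 and 2191 CPM in the Kv1.2 libraries, a log2 fold change of 9.11 (standard error 1.68). It was at 165 and 409 CPM with Kir2.1. The lowest Kv1.2 value thus exceeded the highest of the other 4 libraries. H2-Ab1, the partner beta chain gene, was at 1.51 and 20.4 CPM in the control and at 4637 and 1264 CPM in Kv1.2. Cd74, which encodes the invariant chain that guards the class II groove, was at 9.07 and 3.19 CPM in the control and at 2176 and 483 CPM in Kv1.2 (log2 fold change 7.75, standard error 1.195). H2-Eb1 was at 0.850 and 4.30 CPM in the control and at 1520 and 225 CPM in Kv1.2. Kv1.2 replicate 1 was the higher of the pair for each of these 4 genes. H2-DMa, whose product helps to load peptides, was at 116 and 18.9 CPM in the control and at 1949 and 721 CPM in Kv1.2, and H2-Oa and H2-Ob were also higher in both Kv1.2 libraries. Leaving out any one of the 4 libraries left 7 or 8 of the 9 genes separated upward, and the median was 5.98 without control replicate 2.

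MHC class I genes lay above the control in a similar way. Of 14 genes tested, 7 were separated upward (5.13% of all genes tested) and 12 lay above the control without overlap (20.8%). The median log2 fold change was 3.69, or 3.64 without control replicate 2. H2-K1, a classical class I heavy chain gene, was at 98.3 and 55.7 CPM in the control, 1676 and 1431 CPM in Kv1.2, and 552 and 700 CPM with Kir2.1. Its log2 fold change was 4.33 (standard error 0.61, unadjusted p = 0.000217 and adjusted p = 0.253 by edgeR's quasi-likelihood test). H2-T23, a nonclassical class I gene, was at 30.8 and 21.5 CPM in the control and at 499 and 362 CPM in Kv1.2. For both genes the Kv1.2 libraries lay above all 4 others. H2-D1 was at 338 and 45.2 CPM in the control and at 2347 and 1948 CPM in Kv1.2. B2m, the light chain gene, was the most abundant of the list, with 9673 and 1687 CPM in the control and 27970 and 26259 CPM in Kv1.2, which did not overlap but were apart by less than 4-fold. Psmb9 encodes an immunoproteasome subunit and Tap1 a subunit of the peptide transporter, and these neighbouring genes on opposite strands overlap, so that reads counted without strand could be shared. Psmb9 was at 21.5 and 0.123 CPM in the control and at 276 and 235 CPM in Kv1.2. H2-Q6 and H2-Q7 are near-identical copies, so their levels of 79.8 to 198 CPM in Kv1.2 against at most 0.472 CPM in the control are uncertain for each gene alone. They passed the minimum only through Kv1.2, which fixed their direction.

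**Figure D2:**
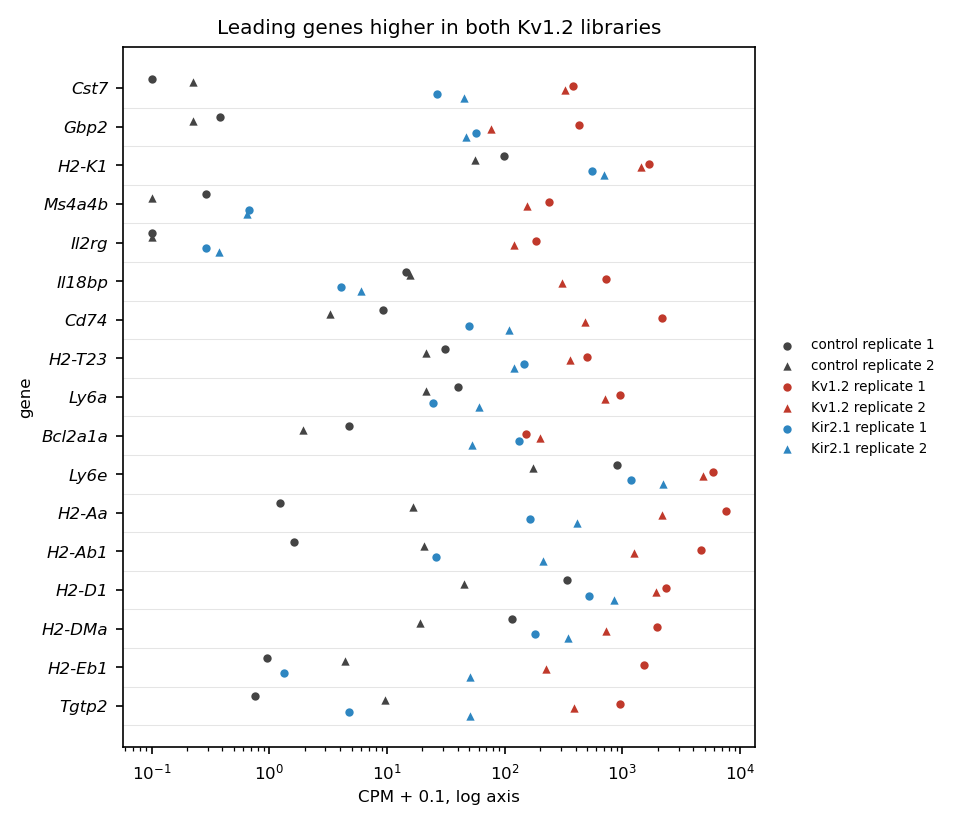
CPM plus 0.1 on a log axis in each of the 6 libraries for 10 of the 12 separated genes with the smallest p and the 10 most abundant separated genes above the control, in which 3 genes were in both. Each symbol is 1 library (circle replicate 1, triangle replicate 2), and both red Kv1.2 symbols lie to the right of both dark control symbols for every gene.

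Interferon-inducible genes were among those with the smallest p. Gbp2, an interferon-inducible GTPase gene, was at 0.283 and 0.123 CPM in the control, 426 and 76.9 CPM in Kv1.2, and 57.2 and 47.3 CPM with Kir2.1 (log2 fold change 10.17, standard error 1.41). Il18bp encodes a secreted protein that neutralizes interleukin-18, and was at 14.5 and 15.7 CPM in the control, 720 and 307 CPM in Kv1.2, and 3.96 and 5.86 CPM with Kir2.1. Both Kv1.2 values lay above all others, and the gene overlaps Numa1 on the opposite strand. Ly6a, a surface antigen gene, was at 39.7 and 21.4 CPM in the control and at 960 and 712 CPM in Kv1.2, and Ly6e, of the same family, was at 909 and 173 CPM in the control and at 5898 and 4800 CPM in Kv1.2. A list of 20 interferon-stimulated genes had 17 members tested, with a median log2 fold change of 1.86. Of the 17, 6 were separated upward, 12 did not overlap upward and 0 lay lower without overlap. The shares of all genes tested were 5.13%, 20.8% and 24.7%. Zbp1, a nucleic acid sensor gene, was at 0.189 and 3.56 CPM in the control, 230 and 48.9 CPM in Kv1.2 and 0 CPM in both Kir2.1 libraries. A list of 22 interferon-gamma-inducible genes was drawn up after the values were seen and is given as a description. Of its 18 members above the minimum, 3 passed it only through Kv1.2, where they are high, Gbp2 among them. The summed level of the 18 was 343 and 142 CPM in the control, 4959 and 2293 CPM in Kv1.2, and 756 and 884 CPM with Kir2.1. Tgtp2 and Igtp, of the family of interferon-inducible GTPases that act against pathogens in vacuoles, were at 947 and 389 CPM and at 440 and 172 CPM in Kv1.2. In the control, Tgtp2 was at 0.661 and 9.57 CPM and Igtp at 0 and 2.21 CPM. With Kir2.1, Tgtp2 was at 4.62 and 51.1 CPM. Igtp was at 3.59 and 189 CPM there, so Kir2.1 replicate 2 lay above Kv1.2 replicate 2. Igtp overlaps Irgm2 on the same strand in the annotation, and Tgtp2 has the near-identical copy Tgtp1, so both levels carry that doubt.

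The promoters of leading upward genes are shown for the interferon-type motif that some of them hold. A promoter here is the window of 300 bases from 250 before to 50 after the RefSeq start (GRCm38.p6). Of the 12 separated genes with the smallest p above the control, 8 had an entry. The motif GAAANNGAAA, read on both strands and chosen after the values were seen, was found in Gbp2 and H2-T23, and the motif GAGGAAGT, a binding sequence of the myeloid factor PU.1, in Bcl2a1a, an antiapoptotic gene with near-identical copies. Among all 27025 genes with an entry, 3.99% held the first motif and 3.69% the second. Shares over the gene groups are not given, since only 69.4% of the genes tested had an entry. The 5 sequences include Tgtp2 and Igtp and read 5′ to 3′ along the gene, with the motif in capitals on whichever strand it was found.
Gbp2, chr3:142620413-142620712, plus strand: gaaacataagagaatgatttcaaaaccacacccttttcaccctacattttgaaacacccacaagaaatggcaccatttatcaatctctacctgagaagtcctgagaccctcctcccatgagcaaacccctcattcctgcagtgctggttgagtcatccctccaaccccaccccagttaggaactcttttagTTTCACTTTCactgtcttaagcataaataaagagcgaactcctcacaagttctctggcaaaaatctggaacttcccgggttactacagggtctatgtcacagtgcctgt
H2-T23, chr17:36032652-36032951, minus strand: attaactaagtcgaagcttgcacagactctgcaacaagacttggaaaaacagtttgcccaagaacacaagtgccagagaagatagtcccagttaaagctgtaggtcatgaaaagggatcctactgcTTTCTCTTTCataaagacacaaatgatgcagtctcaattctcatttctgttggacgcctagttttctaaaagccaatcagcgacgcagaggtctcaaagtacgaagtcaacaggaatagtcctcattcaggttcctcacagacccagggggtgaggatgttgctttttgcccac
Tgtp2, chr11:49064163-49064462, minus strand: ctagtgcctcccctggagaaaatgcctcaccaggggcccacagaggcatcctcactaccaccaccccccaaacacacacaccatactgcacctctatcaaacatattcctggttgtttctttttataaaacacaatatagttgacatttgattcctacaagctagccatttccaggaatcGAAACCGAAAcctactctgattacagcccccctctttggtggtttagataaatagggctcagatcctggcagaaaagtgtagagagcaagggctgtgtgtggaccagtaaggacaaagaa
Igtp, chr11:58199306-58199605, plus strand: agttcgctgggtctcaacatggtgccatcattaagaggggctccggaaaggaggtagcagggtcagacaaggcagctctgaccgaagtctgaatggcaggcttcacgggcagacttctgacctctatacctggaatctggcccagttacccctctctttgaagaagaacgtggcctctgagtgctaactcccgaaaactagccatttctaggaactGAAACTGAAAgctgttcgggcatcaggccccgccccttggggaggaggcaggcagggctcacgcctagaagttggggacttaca
Bcl2a1a, chr9:88956670-88956969, plus strand: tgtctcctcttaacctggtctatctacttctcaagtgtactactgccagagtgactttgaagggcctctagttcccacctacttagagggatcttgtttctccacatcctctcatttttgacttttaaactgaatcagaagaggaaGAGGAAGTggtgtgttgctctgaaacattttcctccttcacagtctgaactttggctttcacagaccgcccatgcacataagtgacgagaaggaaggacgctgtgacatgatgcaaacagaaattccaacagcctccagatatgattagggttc
In Tgtp2 and Igtp the motif lay in the forward direction and in Gbp2 and H2-T23 in the reverse direction. A match describes these letters and does not show that a factor binds there.

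Genes of lymphocytes were measured in both Kv1.2 libraries and were near 0 in both control libraries. Of a list of 11 T and NK cell genes, 5 passed the minimum, and since the control libraries held at most 0.472 CPM of any of them, they could pass only through Kv1.2. Ms4a4b, a T cell membrane gene, was at 0.189 and 0 CPM in the control, 237 and 155 CPM in Kv1.2, and 0.566 and 0.549 CPM with Kir2.1. The ratio of its counts was 1839 with a 95% counting interval of 509 to 15191. Nkg7, a gene of cytotoxic granules, was at 0 CPM in both control libraries and at 107 and 25.3 CPM in Kv1.2, at least 418-fold higher if the control group is set to a floor of 3 counts in all. Cd3d and Cd3g encode chains of the T cell receptor complex. Cd3d was at 0.0945 and 0 CPM in the control and at 28.0 and 22.2 CPM in Kv1.2, and Cd3g at 0.472 and 0 CPM in the control and at 64.2 and 29.2 CPM in Kv1.2. The 6 other genes of the list were not tested, and 3 of them were measured in Kv1.2 replicate 1 but hardly in replicate 2. Trac, the constant region of the T cell receptor alpha chain, was at 135 CPM in Kv1.2 replicate 1 and at 0 CPM in replicate 2, Gzma, a granzyme gene, at 95.6 and 0.079 CPM, and Cd3e, another chain gene of the receptor complex, at 4.97 and 0.157 CPM. Cd8a was at 0 CPM in all 6 libraries, Gzmb at 0 CPM in the control and Kv1.2 libraries, and Cd4 at no more than 0.306 CPM in the Kv1.2 libraries.

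Il2rg, the shared gamma chain gene of several interleukin receptors, was at 0 CPM in both control libraries, 186 and 120 CPM in Kv1.2, and 0.189 and 0.275 CPM with Kir2.1, at least 958-fold above the control. A second list of 20 lymphocyte genes, drawn up after the values were seen, had 9 members above the minimum, again only through Kv1.2. Their summed level was 0.189 and 0.491 CPM in the control, 560 and 412 CPM in Kv1.2, and 23.03 and 0.824 CPM with Kir2.1. Among them, Cxcr6, a chemokine receptor gene, was at 137 and 107 CPM and Gpr18, a lipid receptor gene, at 69.9 and 89.2 CPM in Kv1.2, with 0 CPM of both in the control. Trbc2, a constant region gene of the beta chain, was not tested and was at 52.1 CPM in Kv1.2 replicate 1 and at 0 CPM in replicate 2. Plac8, which monocytes and lymphocytes express, was at 0 CPM in both control libraries and at 72.5 and 25.1 CPM in Kv1.2, through which alone it passed the minimum. The other 2 tested genes of the monocyte and neutrophil list did not follow it, with S100a8 at 27.3 and 3.93 CPM in the control and at 7.72 and 0 CPM in Kv1.2, and Camp at 22.8 and 0 CPM in the control and at 0 and 13.8 CPM in Kv1.2. The B cell genes Cd79b and Ighm were present in all libraries, at 43.4 and 25.4 CPM for Cd79b in the control and at 81.5 and 299 CPM in Kv1.2. The part of lymphocyte RNA in the interferon and MHC values above was not tested.

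Genes of activated microglia and of the lysosome had smaller median differences, which depended on the control library. Cst7, which encodes the inhibitor cystatin F and is induced in activated microglia and expressed in cytotoxic lymphocytes, was at 0 and 0.123 CPM in the control, 378 and 326 CPM in Kv1.2, and 26.4 and 44.8 CPM with Kir2.1. Its counts gave a ratio of 6592 with a 95% counting interval of 1183 to 260414, and it had the smallest p of the genes above the control (unadjusted p = 4.42e-05 and adjusted p = 0.172 by edgeR's quasi-likelihood test). Clec7a, the receptor dectin-1 gene, was at 44.5 and 14.2 CPM in the control, 262 and 269 CPM in Kv1.2, and 134 and 309 CPM with Kir2.1. Ch25h, which makes 25-hydroxycholesterol, was at 0 CPM in both control and both Kir2.1 libraries and at 26.8 and 62.5 CPM in Kv1.2. Gpnmb, of the same list, lay the other way, at 7.08 and 2.09 CPM in the control and at 0.229 and 0 CPM in Kv1.2. Over the 14 genes of this list that were tested, 3 were separated upward and 1 downward, against 5.13% and 12.1% of all genes tested. The median log2 fold change was 1.43. Cst7 and Ch25h passed the minimum only through Kv1.2 and Gpnmb only through the control, so the direction of these genes was fixed by it. Without control replicate 1 the median was 3.03 with 8 separated upward, and without control replicate 2 it was 0.88 with 3.

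The 15 microglial marker genes had 0 members separated in either direction, 9 without overlap upward and a median log2 fold change of 1.30, which was 0.46 without control replicate 2 and 3.05, with 14 of the 15 genes separated upward, without control replicate 1. The part of these markers' shares in the values of other myeloid genes was not tested. Of 24 lysosomal genes, 23 did not overlap upward and 1 was separated, with a median of 1.59. Without control replicate 2 the median was 0.86 with 3 separated, without control replicate 1 it was 2.89 with 17, and without Kv1.2 replicate 1 and 2 the count was 2 and 4. Of 13 chemokine and chemokine receptor genes, 4 were separated upward and 9 did not overlap, with a median of 2.95. Ccl12, which attracts monocytes, was at 1295 and 250 CPM in the control and at 9063 and 5081 CPM in Kv1.2, and Ccl5, which T cells and activated microglia make, at 35.5 and 5.77 CPM in the control and at 198 and 194 CPM in Kv1.2. Fc receptor and ITAM genes (13 tested, median 1.34) and Toll-like receptors and adaptors (13 tested, median 1.75) had 1 and 2 members separated upward, and complement genes (9 tested, median 1.96) had 1. Of all genes tested, 5.13% were separated upward and 20.8% did not overlap upward, shares that also grow when a library is left out. The single separated genes of the lysosomal, Fc receptor and complement lists are thus not read as a result. Without control replicate 1 the separated counts were 11 for chemokines, 9 for Fc receptor and ITAM genes, 9 for Toll-like receptors and 7 for complement, and without control replicate 2 they were 5, 2, 4 and 1. The 1 complement gene was C3, at 0.189 and 0 CPM in the control and at 7.49 and 27.8 CPM in Kv1.2, through which alone it passed the minimum.

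**Figure D3:**
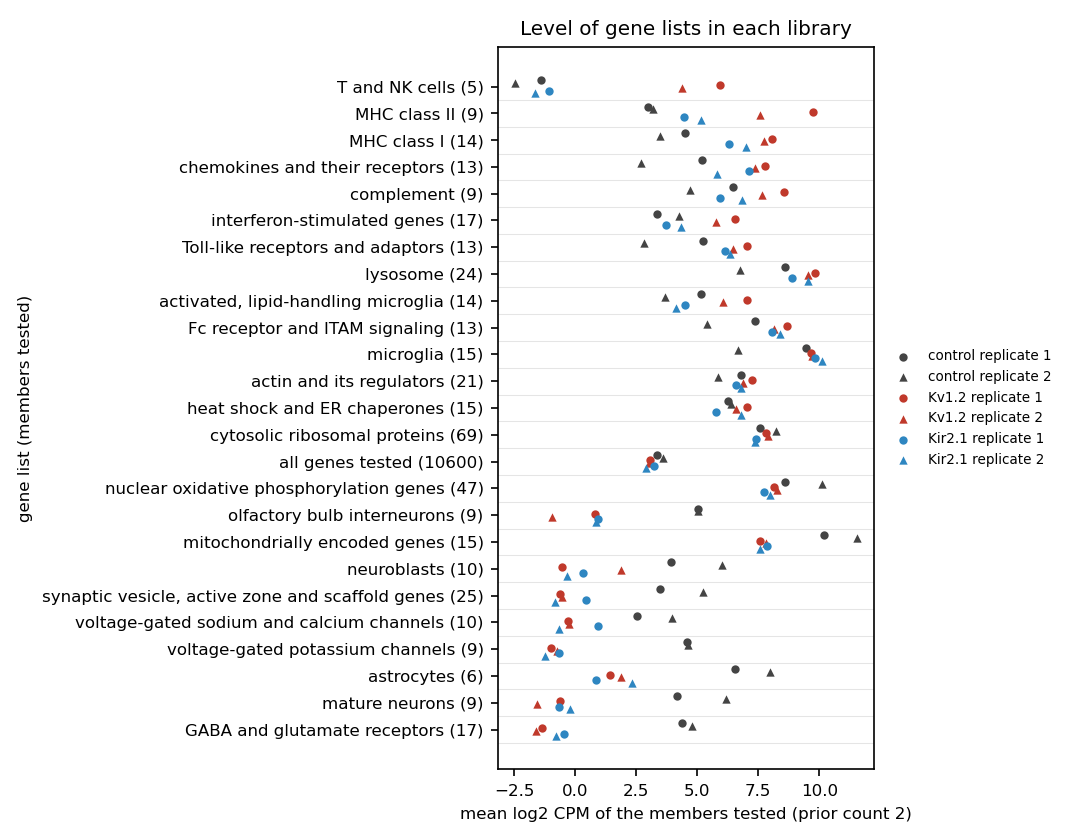
Mean log2 CPM, with a prior count of 2, of the tested members of 24 gene lists and of all genes tested in each of the 6 libraries, ordered by the median log2 fold change of Kv1.2 against control. Red Kv1.2 symbols lie to the right of the dark control symbols for MHC class II and T and NK cell genes, and to the left of them for neuronal, receptor and mitochondrially encoded genes, while the control libraries lie apart from each other for microglial genes. All T and NK cell genes passed the minimum only through Kv1.2, and many neuronal and receptor genes only through the control, which fixed their direction.

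Below the control, the smallest p belonged to genes with almost no counts in Kv1.2. S100a16, a gene of a Ca2+-binding protein, was at 208 and 657 CPM in the control and at 0.0764 and 0.0786 CPM in Kv1.2, and it had the smallest p of all genes (unadjusted p = 2.10e-05 and adjusted p = 0.172 by edgeR's quasi-likelihood test). Ntsr2, a neurotensin receptor gene of astrocytes, was at 194 and 264 CPM in the control and at 0.153 and 0.0786 CPM in Kv1.2, and Sparcl1, also an astrocytic gene, at 300.3 and 604 CPM in the control and at 0 and 0.157 CPM in Kv1.2. All 3 were at no more than 0.189 CPM with Kir2.1 too. The marker list of astrocytes had 6 of 9 genes tested, of which 4 were separated downward, against 12.1% of all genes tested. Gfap, the astrocytic filament gene, was at 61.4 and 10.1 CPM in the control and at 0 CPM in both Kv1.2 libraries, at least 336-fold lower. Slc1a3, a glutamate transporter gene, was an exception at 322 and 454 CPM in the control and at 327 and 166 CPM in Kv1.2. S100a16, Ntsr2, Sparcl1 and 2 of the 6 tested markers, Gfap among them, passed the minimum only through the control. Their lower level in Kv1.2 was fixed by it. The 3 markers under the minimum reached 1 CPM in control replicate 2 but not in control replicate 1, such as Aqp4 at 0.094 and 78.4 CPM.

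A gene of cilia and several genes of olfactory sensory neurons stood among those below. Nme5, a gene of cilia and flagella, was at 58.2 and 369 CPM in the control and at 0 CPM in both Kv1.2 libraries, at least 1663-fold lower. Nme5 passed the minimum only through the control. Gng13, a G protein subunit gene of olfactory sensory neurons, was at 359 and 7101 CPM in the control, 0.306 and 0.707 CPM in Kv1.2, and 0.661 and 0.366 CPM with Kir2.1. Chtf18 overlaps Gng13 on the opposite strand and had a like profile, at 283 and 5100 CPM in the control, so their reads cannot be told apart without strand. S100a5, an olfactory sensory neuron gene, was at 648 and 13303 CPM in the control and at 9.33 and 30.6 CPM in Kv1.2. A list of 14 olfactory sensory neuron genes, drawn up after the values were seen, had 5 members above the minimum, of which 4 passed it only through the control, so that their lower level in Kv1.2 was fixed by it. Their summed level was 1119 and 21130 CPM in the control, 9.71 and 32.0 CPM in Kv1.2, and 8.21 and 1.10 CPM with Kir2.1. Omp, which encodes olfactory marker protein, was at 3.97 and 198 CPM in the control and at 0 CPM in both Kv1.2 libraries. Control replicate 2 was the higher control library for Nme5, Gng13, Chtf18, S100a5 and Omp. Of the 9 list members under the minimum, 3 reached 1 CPM in control replicate 2 but not in control replicate 1. Cnga2, Cnga4, Rtp1, Rtp2, Ano2 and Ric8b, also of the list, were at no more than 0.189 CPM in both control libraries. The list was thus not high in the control as a whole. Fabp7, a fatty acid binding protein gene of radial glia and olfactory ensheathing cells, was at 661 and 15971 CPM in the control, 91.3 and 124 CPM in Kv1.2, and 4.62 and 1.56 CPM with Kir2.1.

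**Figure D4:**
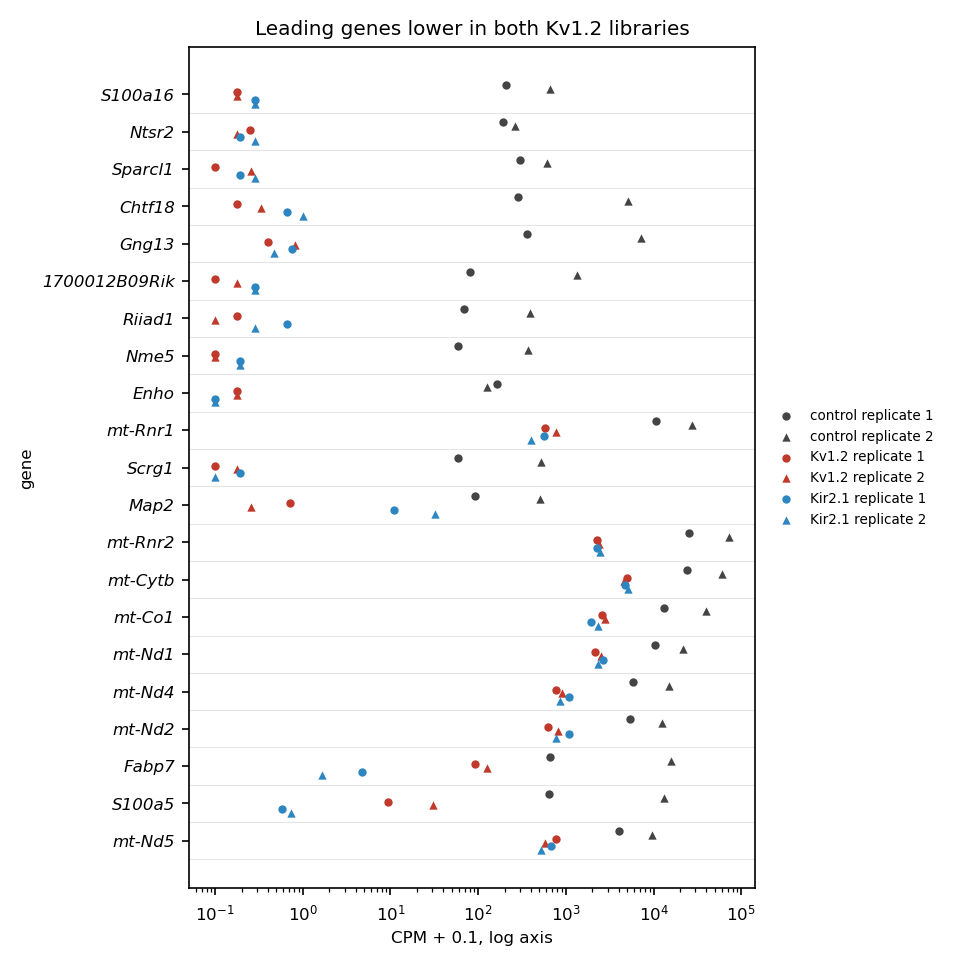
CPM plus 0.1 on a log axis in each of the 6 libraries for the 12 separated genes with the smallest p and the 10 most abundant separated genes below the control, in which 1 gene was in both. Both red Kv1.2 symbols lie to the left of both dark control symbols for every gene, and the mitochondrially encoded genes shown keep at least 579 CPM in Kv1.2, the lower value of mt-Nd5.

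Markers of neuroblasts and bulb interneurons were below the control in part. Of 14 neuroblast markers, 10 were tested and 5 were separated downward, against 12.1% of all genes tested. Dcx, the doublecortin gene, was at 78.5 and 19.8 CPM in the control, 0 and 0.236 CPM in Kv1.2, and 0 CPM in both Kir2.1 libraries. Gap43, which encodes a growth cone protein, was at 39.4 and 394 CPM in the control and at 0 CPM in both Kv1.2 libraries, at least 1666-fold lower. Of 19 interneuron markers, 9 were tested and 4 were separated downward, or 7 without Kv1.2 replicate 1. Gad1, which makes GABA, was at 134 and 159 CPM in the control, 0 CPM in both Kv1.2 libraries, and 11.5 and 0.549 CPM with Kir2.1, at least 1243-fold lower in Kv1.2. Meis2, a transcription factor gene of these interneurons, was at 106 and 140 CPM in the control and at 0.535 and 0 CPM in Kv1.2. Pantr1, a long noncoding RNA of the brain, was at 72.4 and 341 CPM in the control and at 0 and 0.157 CPM in Kv1.2. Only through the control did 4 of the 10 neuroblast and 3 of the 9 interneuron markers pass the minimum. For these, and for each gene named in this paragraph, a lower value in Kv1.2 was fixed by it, so the counts are descriptions.

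Genes of mature neurons, synapses, channels and receptors lay lower for most members tested. The shares of all genes tested were 12.1% separated downward and 9.84% lower at an unadjusted p under 0.05. Of the 9 mature neuron markers tested, 7 were separated downward, with a median fitted log2 fold change of −7.58 (−7.53 with genes without counts at their bound), or −5.99 without control replicate 2. Among them, Snap25, a gene of the vesicle fusion machinery, was at 380 and 451 CPM in the control and at 0.0764 and 11.7 CPM in Kv1.2. Of 25 synaptic genes tested, 18 were separated downward and 15 were lower at an unadjusted p under 0.05, with a median log2 fold change of −5.48, counting genes without reads in one group at their bound. Dlg2, which encodes a postsynaptic scaffold, was at 40.3 and 872 CPM in the control and at 0.459 and 0.236 CPM in Kv1.2, and Pclo, a gene of the presynaptic active zone, at 109 and 45.0 CPM in the control and at 0.153 and 0.157 CPM in Kv1.2. Of 17 GABA and glutamate receptor genes tested, 14 were separated downward (median −7.99). Gria1, an AMPA receptor subunit gene, was at 42.2 and 83.4 CPM in the control and at 0 and 0.0786 CPM in Kv1.2. For Gria1, both control libraries lay above both Kv1.2 libraries. Of 9 voltage-gated K+ channel genes tested, 7 were separated downward (median −5.82), with Kcnd2, an A-type channel gene, at 72.7 and 65.5 CPM in the control and at 0 and 0.0786 CPM in Kv1.2. Of 10 Na+ and Ca2+ channel genes tested, 4 were separated downward (median −5.65). Without control replicate 2 the median of this list was −2.69, and without control replicate 1 it had 7 members separated downward. Many members of these lists passed the minimum with no Kv1.2 library at 1 CPM (6 of 9 mature neuron markers, 13 of 25 synaptic, 12 of 17 receptor, 5 of 9 K+ channel and 7 of 10 Na+ and Ca2+ channel genes), and for these a lower value in Kv1.2 was fixed by the minimum, so the counts are descriptions. Of members under the minimum, 5 of 5 synaptic and 7 of 9 receptor genes reached 1 CPM in control replicate 2 but not in control replicate 1. Scn2a, a Na+ channel gene, was at 0.094 and 85.2 CPM in the control and at 0 and 0.157 CPM in Kv1.2, and Grin2a, an NMDA receptor subunit gene, at 0.756 and 52.0 CPM in the control and at 0.076 and 0.079 CPM in Kv1.2. For these, control replicate 1 lay with the Kv1.2 libraries. In the Kir2.1 libraries, Gria1 and Kcnd2 were at no more than 0.378 CPM.

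Genes encoded by the mitochondrial genome were lower in Kv1.2 but stayed abundant. All 15 tested lay below the control without overlap (24.7% of all genes tested), and 12 were separated downward (12.1%). Their median log2 fold change was −3.25, or −2.28 without control replicate 2. Together they held 10.8% and 22.9% of all counts in the control, 1.47% and 1.58% with Kv1.2, and 1.88% and 1.46% with Kir2.1. The rRNA gene mt-Rnr2 was at 25341 and 72561 CPM in the control and at 2241 and 2403 CPM in Kv1.2 (log2 fold change −4.40, standard error 0.82), and mt-Rnr1 at 10791 and 27463 CPM in the control and at 584 and 781 CPM in Kv1.2. Of the messages, mt-Cytb, a complex III subunit gene, was at 24255 and 60805 CPM in the control and at 4994 and 4651 CPM in Kv1.2, and mt-Co1, of complex IV, at 13263 and 39870 CPM in the control and at 2602 and 2830 CPM in Kv1.2. The Kv1.2 replicates were close to each other for these genes. The nuclear genes of the same complexes were apart to a smaller degree. Of 47 tested, 1 was separated downward, Ndufv1, and 32 did not overlap downward, with a median of −1.43 that was −0.35 without control replicate 2. Without control replicate 1, 23 were separated downward. Of 69 cytosolic ribosomal protein genes, 0 were separated in either direction. The share of mitochondrially encoded counts moved with the groups, and its part in the other values was not tested.

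**Figure D5:**
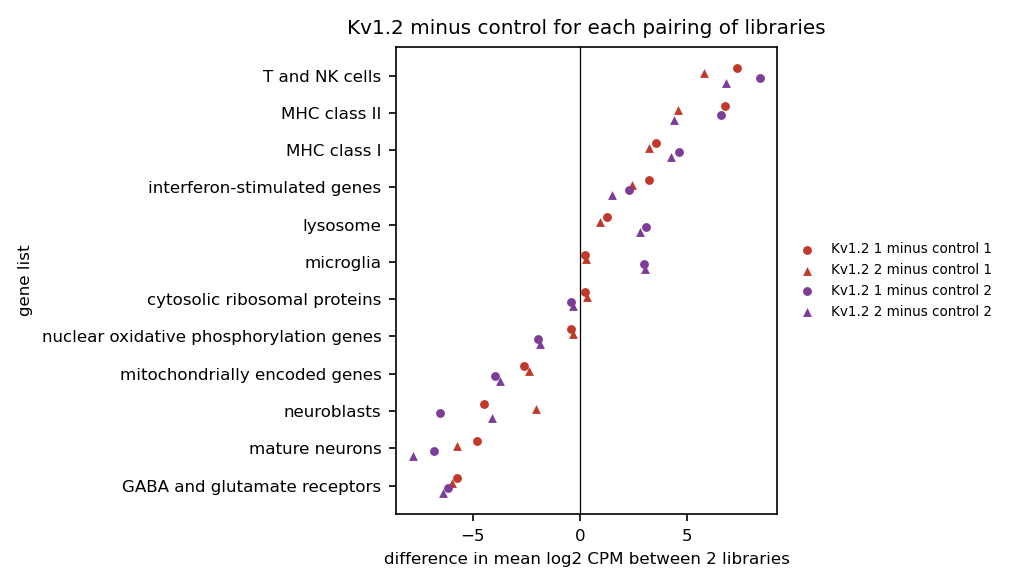
Difference in mean log2 CPM of 12 gene lists between 1 Kv1.2 and 1 control library, for each of the 4 pairings. All 4 differences are above 0 for T and NK cell, MHC, interferon-stimulated and lysosomal genes and below 0 for neuronal, receptor and mitochondrially encoded genes, and they change sign with the control library for cytosolic ribosomal protein genes. All 5 T and NK cell genes passed the minimum only through Kv1.2, and 6 of 9 mature neuron and 12 of 17 receptor genes only through the control. The direction of these genes was fixed by it.

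Other groups were mixed. Of 10 immediate early genes tested, 2 were separated upward and 3 downward, against 5.13% and 12.1% of all genes tested. Of these 10, 3 passed the minimum only through the control and 1 only through Kv1.2, which fixed their direction. Klf6, an injury-responsive transcription factor gene, was at 8.60 and 10.2 CPM in the control and at 140 and 117 CPM in Kv1.2, while Jun was at 34.1 and 12.1 CPM in the control and at 0 CPM in both Kv1.2 libraries. Among heat shock and ER chaperone genes, Hsp90aa1 was at 299 and 495 CPM in the control and at 37.8 and 90.3 CPM in Kv1.2, and Pdia4, an ER oxidoreductase gene, at 7.56 and 7.36 CPM in the control and at 137 and 56.0 CPM in Kv1.2. This list as a whole had 1 of 15 separated upward, against 5.13% of all genes tested. Tfrc, the transferrin receptor gene, was at 13.98 and 9.57 CPM in the control and at 0 CPM in both Kv1.2 libraries. Of 21 actin genes and regulators, 0 were separated upward and 1 downward, and Actb was at 631 and 335 CPM in the control and at 1581 and 1506 CPM in Kv1.2. Tmsb4x, which encodes an actin-sequestering peptide and is abundant in microglia, was at 24867 and 20752 CPM in the control and at 33984 and 35132 CPM in Kv1.2 (log2 fold change 0.60, standard error 0.64). The related Tmsb10 was below the minimum. Of the proliferation markers, Birc5 was at 0.0945 and 0 CPM in the control and at 20.3 and 18.5 CPM in Kv1.2, and Pcna at 31.9 and 36.7 CPM in the control and at 131 and 145 CPM in Kv1.2, while Ccna2 lay lower, at 75.7 and 14.1 CPM against 8.18 and 10.5 CPM. Of vascular markers, Itm2a alone passed the minimum among 9 endothelial genes, at 57.0 and 58.3 CPM in the control and at 0 and 0.0786 CPM in Kv1.2. Of 4 oligodendrocyte genes tested, 2 were separated downward, among them the myelin gene Mobp, at 30.4 and 36.1 CPM in the control and at 0.0764 and 0.157 CPM in Kv1.2. Itm2a, these 2 genes, Jun and Tfrc passed the minimum only through the control, so a lower value in Kv1.2 was fixed by it. Birc5 passed it only through Kv1.2, so its higher value there was fixed too.

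By position, separated upward genes were most frequent on chromosome 17, which carries the MHC, with 43 of 538 genes tested (7.99%), against 5.13% of all genes. Chromosomes 16 and 19 were close, with 7.32% and 7.1%, and the part of MHC genes in the 43 was not tested. Downward genes were most frequent on the mitochondrial chromosome, with 14 of 28 (50%), against 12.1% of all genes. By level, downward genes made up 18.9% of genes with a mean of 3 to 10 CPM and 6.42% of those with at least 300 CPM. Transcripts of upward genes had a median length of 3362.5 bases and those of downward genes 5298.5 bases, against 4116.5 bases for all genes tested.

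Against Kir2.1, the other K+ channel, the quasi-likelihood test of edgeR called 0 genes (0%) at an adjusted p under 0.05 and gave 569 genes (5.37%) at an unadjusted p under 0.05, with 281 higher and 288 lower in Kv1.2. DESeq2 called 385 genes and the likelihood ratio test 77. The smallest p belonged to Il18bp, with a log2 fold change of 6.70 (standard error 0.85) of Kv1.2 against Kir2.1, and Ms4a4b and Il2rg, whose levels are given above, were also among the 6 smallest. The Kv1.2 libraries are shared with the comparison against the control, so the 2 comparisons are not independent. The minimum considered only the control and Kv1.2 libraries, so genes high only with Kir2.1 could not enter, which limits these counts. Galt, a galactose metabolism gene, was at 98 and 120 CPM in Kv1.2, 0.472 and 0.183 CPM in the Kir2.1 and 30.5 and 31.8 CPM in the control libraries, and it overlaps Il11ra1 on the same strand. Acadm, which encodes a fatty acid oxidation enzyme, was at 0.0764 and 0 CPM in Kv1.2, 77.2 and 46.2 CPM in the Kir2.1 and 75.9 and 70.6 CPM in the control libraries. Mib1, a ubiquitin ligase gene of Notch signaling, was at 0.306 and 0.0786 CPM in Kv1.2, 95.1 and 53.5 CPM in the Kir2.1 and 49.5 and 108 CPM in the control libraries. Acadm and Mib1 were thus lower in both Kv1.2 libraries than in all 4 others. Both passed the minimum only through the control, so their place below the control was fixed by it. Against Kir2.1 the adjusted p of each was 0.886 by edgeR's quasi-likelihood test. Of 9 MHC class II genes, 5 were past an unadjusted p of 0.05 against Kir2.1, and of 5 T and NK cell genes 4 were. Among 15 mitochondrially encoded genes 0 were, with a median log2 fold change of −0.02 against Kir2.1, and among 17 GABA and glutamate receptor genes 1 was. All 5 T and NK cell genes had passed the minimum only through Kv1.2, which favoured a higher level there, so their count is a description.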

How the data were processed

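Libraries were made from sorted, pooled cells of the mouse olfactory bulb. Per the submitters' processing notes and the study's methods, the authors aligned reads with STAR 2.7.0f, handled alignments with SAMtools 1.9, assigned reads to genes with Subread 1.6.4 and worked in R 3.5.2 with edgeR 3.24.3. The labels give paired reads and the methods give single reads, and a strand setting for the counting is not stated in them. The deposited values used here are whole-number counts of reads per gene, not normalized, with gene lengths given by the authors. Deposited CPM, FPKM and TPM tables, and tables of the authors' own comparisons with log2 fold changes, p-values and FDR, were not used.

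Counts of the 6 libraries were scaled by TMM and fitted with edgeR 4.0.16 (limma 3.58.1, R 4.3.3) by the quasi-likelihood test with Benjamini-Hochberg adjustment over 10600 genes at 1 CPM in at least 2 of 4 libraries. CPM were computed with the TMM-scaled library total. The standard error is the absolute log2 fold change over the square root of the F statistic. DESeq2 1.42.0 was an alternative. Ratios of genes with 1 to 3 counts in a group carry a 95% counting interval, and genes without counts in a group were set to a floor of 3 counts over that group. Intervals and floors cover counting error only, since the reads carry no molecular identifiers here. In simulated counts of this comparison (10600 genes, 5 simulations), 10.7% of 16-fold differences were recovered at an adjusted p under 0.05.

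Named were Kcna2, in each direction the 12 separated genes with the smallest p and the 10 most abundant, up to 3 genes per list with the smallest p and its defining members, Tmsb4x, Tmsb10 and the 6 genes with the smallest p against Kir2.1. Other named genes, among them Igtp, Zbp1, Psmb9, B2m, P2ry12, Snap25, Dcx, Cxcr6, Gpr18, Trbc2, Gpnmb, Slc1a3, Omp, Scn2a, Grin2a and Cd3g, were chosen after their values were seen. The comparison, the 42 gene lists and the rules were chosen with earlier results of these data known. Replicates are libraries from different mice, and p-values measure the spread between these libraries. Gene coordinates are from GENCODE (GRCm38) and promoters from RefSeq (GRCm38.p6). Some genes that the naming rule selects are not reported here.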

Additional observations from a re-analysis of the deposited data

How the results depend on the processing

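The count of genes at an adjusted p under 0.05 was 0 in the edgeR quasi-likelihood test under RLE scaling, library size only, other count minimums and the fit of 4 libraries, 1114 with DESeq2, 906 with the likelihood ratio test and 138 without a count minimum. Without a minimum, 956 genes were higher and 2362 lower at an unadjusted p under 0.05. Against Kir2.1 the same 3 settings gave 385, 77 and 27 genes at an adjusted p under 0.05. A 2-fold and an 8-fold gap gave 1011 and 334 genes separated upward. Leaving out each library in turn gave 0 to 15 genes at an adjusted p under 0.05, 243 to 787 higher and 639 to 1048 lower at an unadjusted p under 0.05, 875 to 1558 separated upward and 1531 to 2073 downward, and 0 to 0 against Kir2.1. Of the medians and gene values followed here, 5 changed sign, counting a median only when it also moved by over 1 SD between replicates: the median log2 fold change of all genes was 0.09 without control replicate 1 and 0.17 without control replicate 2, and without control replicate 2 that of ribosomal protein genes was 0.37, that of Kcna2 1.97 and that of Rbfox3 2.1. Leaving out each library in turn gave -0.31 to 0.17 for all genes, -0.29 to 0.37 for ribosomal protein genes, -6.06 to 1.97 for Kcna2 and -9.77 to 2.1 for Rbfox3. The ribosomal median, close to 0 at -0.0016, was also above 0 with library size only (0.040), no count minimum (0.31), filterByExpr (0.045), a minimum over 6 libraries (0.044) and without Kv1.2 replicate 1 (0.023). Outside that set, the median of glycolysis genes was -0.33 and 0.83 without control replicate 2, and that of immediate early genes 0.74 and -3.02 without a count minimum. The causes were not tested. With the replicate block, 0 genes passed an adjusted p under 0.05 in either comparison, and 303 were higher and 815 lower at an unadjusted p under 0.05. Same-numbered libraries of different groups had correlations of their deviations of 0.010, -0.018 and -0.007, so the numbers did not pair them. At this depth and with 2 libraries a group, differences under 16-fold were seldom recovered in simulated counts.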
